A study of Mus musculus with 48 samples.

Results

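The enzymes that break down alcohol, aldehydes and acetate were followed in the hippocampus (HPC) of mice after chronic intermittent ethanol (CIE). The 10 genes were chosen by the step they catalyse, with earlier results of these data known: Adh1, Adh5, Aldh2, Aldh1a1, Aldh9a1, Aldh3a2, Cyp2e1, Cat, Acss1 and Acss2. A probe set is a group of short probes for 1 transcript, and each gene was read from the probe set with the highest mean over all arrays among those whose only platform symbol was that gene. The arrays held 45037 probe sets and 18193 genes with such a symbol, and 21 probe sets belonged to the 10 genes. All 10 genes were measured, and no filter on low values was applied.

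Ethanol is oxidised to acetaldehyde by alcohol dehydrogenases, by the cytochrome CYP2E1 and by catalase. Aldehyde dehydrogenases then turn acetaldehyde into acetate, and acetyl-CoA synthetases turn acetate into acetyl-CoA, which feeds energy metabolism, lipid synthesis and histone acetylation. In brain, alcohol dehydrogenase of the hepatic class is scarce, and catalase and CYP2E1 are regarded as the main routes to acetaldehyde. Pyrazole inhibits alcohol dehydrogenase and is given in vapor studies to hold blood ethanol steady.

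Each of 48 arrays held the hippocampal RNA of a different male C57BL/6J mouse, and the mice formed 8 groups of 6. For CIE mice, 1 cycle was 4 days with 16 h of ethanol vapor (10 to 13 mg/l) and then 7 days of abstinence, with 4 cycles in all and an injection of ethanol (1.6 g/kg) ahead of the vapor. Control (Ctrl) mice were kept in air on that schedule. Pyrazole at 1 mmol/kg was injected into every mouse, Ctrl mice included, so no group shows these genes without that inhibitor, and the harvests at 0h, 8h, 72h and 7d are counted from the end of the final session. All levels are RMA (robust multi-array average) log2 values, so a difference of 1 is a doubling of the probe signal, and levels were compared between mice for 1 probe set at a time.

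Array medians lay between 6.60 and 6.63, correlations between arrays lay between 0.974 and 0.998, and 0 pairs of arrays were identical. The hippocampal label was checked against 8 markers of hippocampal neurons, whose mean level lay between 9.99 and 11.05 on 46 arrays. On the arrays of Ctrl 7d mice 18 and 22 this mean was 9.05 and 9.18. Of the 8 markers, Dsp, Fibcd1, Neurod6 and Zbtb20 were lower on these arrays than on the other 10 arrays of 7d, and Dsp, a desmosome gene of granule cells, was at 6.22 and 6.01 against 7.79 to 12.34. Wfs1, at 10.72 and 11.55, and Calb1, at 12.42 and 12.63, lay within the range of the other 7d arrays or above it, and Prox1, at 7.16 and 7.41, was also low in CIE 7d mouse 59, at 7.06. The mean of 4 striatum markers was 8.80 and 9.17 on these arrays, against 6.87 to 8.04 on the other 46, and Drd1, the dopamine D1 receptor, reached 10.18 and 10.49. These 2 arrays therefore stood apart from the hippocampal label, and the 7d differences of the 10 genes are also given without them. Among Ctrl 0h arrays, mice 2, 12 and 20 had the highest thalamus markers, at 8.66, 8.11 and 8.13, where the other Ctrl 0h mice lay between 7.13 and 7.63 and CIE 0h mice between 7.10 and 7.71. Of the 8 thalamus markers, 1 was called at 0h, Shox2, which fell in CIE mice, with a difference of -1.43.

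Acss1, the mitochondrial acetyl-CoA synthetase, and Aldh3a2, the fatty aldehyde dehydrogenase, were higher in CIE mice on average over the 4 harvests. Adh5, the glutathione-dependent formaldehyde dehydrogenase, was slightly lower, but this call was kept in only 10 of 48 fits that each left out 1 mouse. At single harvests the moderated test of limma, at an adjusted p of 0.01 or less over all probe sets, called 1 of the 10 genes at 7d, which was Acss1, and 0 at each earlier harvest. All genes were called at a rate of 1.64% for 0h, 2.29% for 8h, 0.0055% for 72h and 1.03% for 7d, and the 7d calls divided into 0.852% higher and 0.176% lower. Averaged over harvests, with 24 CIE against 24 Ctrl mice, 2 of the 10 genes were called higher and 1 lower, beside 5.99% of all genes called higher and 1.91% called lower. The F test over the 4 harvests called 1 of the 10, again Acss1, and 6.23% of all genes.

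From 0h to 7d the median difference of the 10 genes was -0.05, -0.08, 0.01 and 0.11, and that of all genes was 0.04, 0.01, 0.01 and 0.03. At 7d, 9 of the 10 genes had a higher mean in CIE mice, and at 0h 3 did. Without Ctrl 7d mice 18 and 22, 7 of the 10 were higher at 7d and the median difference was 0.05, where the median of all genes was 0.02. Without regard to multiple testing, a p under 0.05 in limma was reached by 3, 4, 1 and 4 of the 10 genes in that order of harvests. Of all 45037 probe sets, 8773, 8053, 4217 and 9165 reached it in the same order. Without those mice, the 7d test called 0 of the 10 genes and 0 of all 18193 genes, and the average over harvests called 2 of the 10, Acss1 and Aldh3a2, beside 6.91% of all genes.

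**Figure D1:**
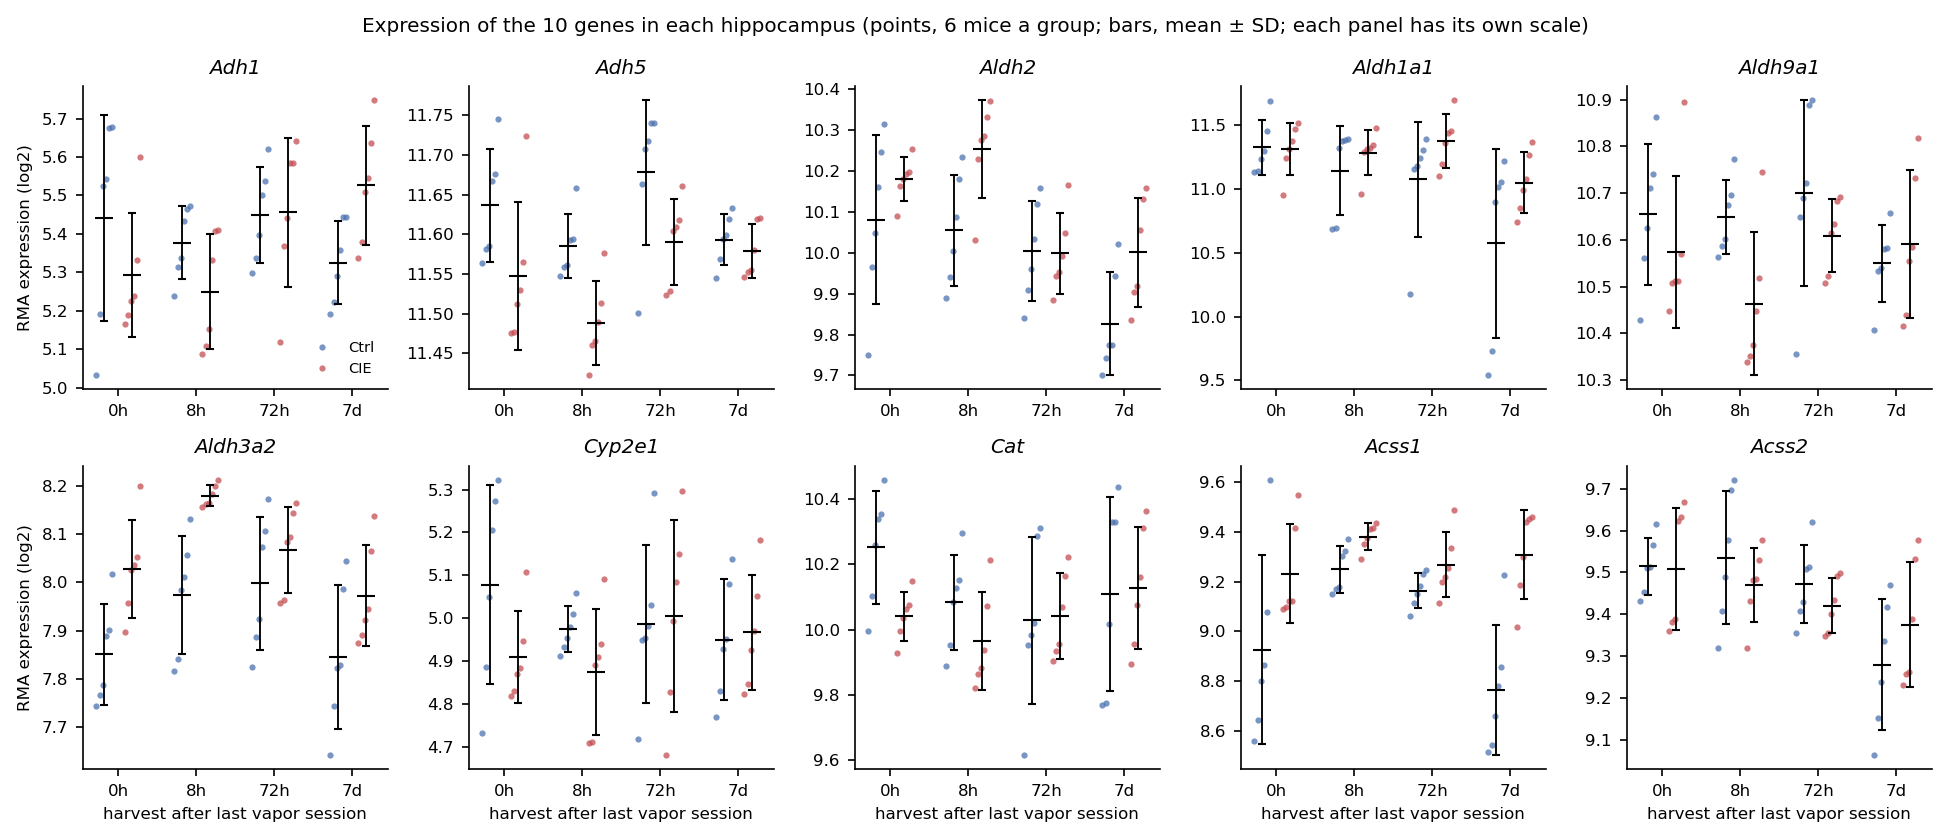
RMA log2 expression of the 10 genes in each of 48 hippocampi by harvest, with Ctrl mice in blue and CIE mice in red, 6 mice per group, and black bars for the mean and SD. CIE mice lay above Ctrl mice for Aldh3a2 at 8h with no overlap, and the 2 lowest Ctrl 7d values of Aldh1a1 were 9.54 and 9.73.

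**Figure D2:**
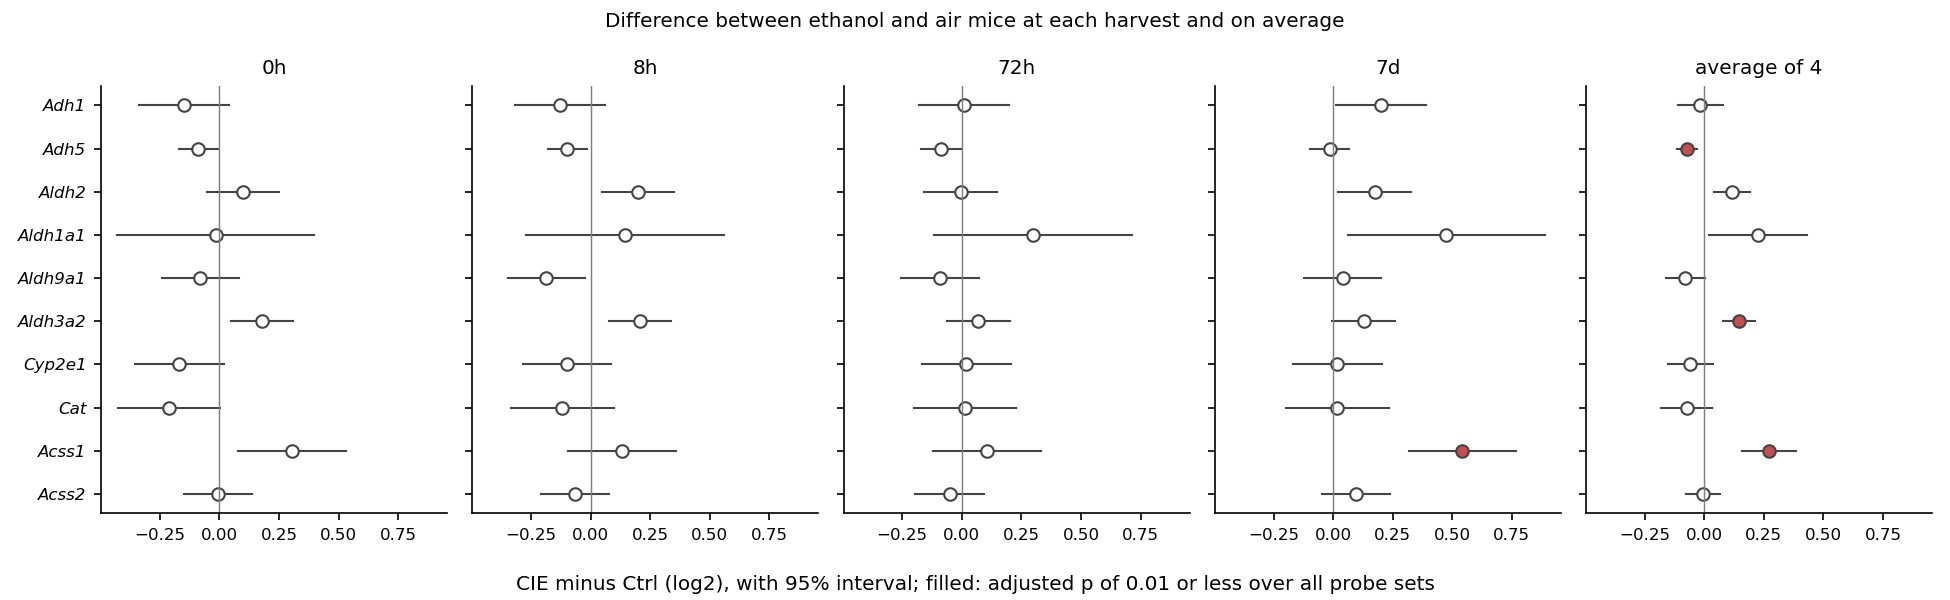
CIE minus Ctrl difference (log2) of each gene at the 4 harvests and averaged over them, with 95% intervals; filled points have an adjusted p of 0.01 or less over all probe sets. Acss1 is filled at 7d and on average, and Aldh3a2 and Adh5 on average.

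The promoters of Acss1 and Aldh3a2 are shown because these are the genes whose average difference was called both with and without the 2 Ctrl 7d arrays. They are the 250 bases before the annotated start in RefSeq, build GRCm38.p6, each on the minus strand and read 5′ to 3′ toward the gene, and capitals mark CACGTG, the E-box bound by clock and SREBP factors. The Acss1 stretch lies at chr2:150668241-150668490, and the Aldh3a2 stretch at chr11:61267187-61267436.
Acss1: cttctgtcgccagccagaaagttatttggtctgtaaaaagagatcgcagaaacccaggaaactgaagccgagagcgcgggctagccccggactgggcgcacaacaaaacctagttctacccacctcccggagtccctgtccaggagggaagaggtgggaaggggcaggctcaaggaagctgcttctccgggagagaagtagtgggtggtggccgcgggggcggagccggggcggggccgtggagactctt
Aldh3a2: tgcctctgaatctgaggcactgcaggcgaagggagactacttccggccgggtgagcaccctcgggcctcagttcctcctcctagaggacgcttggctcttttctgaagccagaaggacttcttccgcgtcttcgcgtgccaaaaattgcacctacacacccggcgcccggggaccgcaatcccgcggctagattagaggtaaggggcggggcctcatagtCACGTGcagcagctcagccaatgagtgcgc

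Both stretches were rich in G and C, at 61.6% for Acss1 and 61.2% for Aldh3a2. The Aldh3a2 stretch held 1 CACGTG, which began 30 bases before the start, and the Acss1 stretch held none of the 4 motifs searched. Promoters were found for 9 of the 10 genes, and the search covered both strands of the same 250 bases in 32851 mouse promoters. CACGTG was in 6.02% of all promoters and 1 of the 9. TCACNCCAC, a sterol regulatory element, was in 1.05% of all promoters and 1 of the 9, Aldh9a1. TGACNNNGC, the antioxidant response element, was in 10.2% and in 2 of the 9, Aldh9a1 and Acss2, and AGAACA, a glucocorticoid receptor half-site, was in 16.1% and in 2 of the 9, Adh1 and Cat. These matches describe letters in the window and not binding.

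Acss1 makes the synthetase that activates acetate inside mitochondria. In Ctrl 7d mice 18, 22, 46, 54, 70 and 80 its level was 8.55, 8.52, 8.66, 8.86, 9.22 and 8.78. In CIE 7d mice 7, 9, 27, 37, 45 and 59 it was 9.18, 9.44, 9.02, 9.30, 9.45 and 9.46. The groups overlapped through 1 Ctrl mouse, number 70, which lay above 2 CIE mice, and CIE was higher in 34 of 36 pairs of mice. The mean was 9.31 ± 0.18 (SD, n = 6) in CIE and 8.76 ± 0.26 (SD, n = 6) in Ctrl mice, a difference of 0.54 (SE 0.11, 95% interval 0.32 to 0.77), or 1.46-fold, with an adjusted p of 0.00396 in limma. In bulk tissue, fewer cells of a type and less RNA per cell cannot be told apart.

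The 2 Ctrl 7d arrays with striatum markers, mice 18 and 22, had the lowest Acss1 of the 12 mice at 7d. Without them the 4 remaining Ctrl mice lay between 8.66 and 9.22, with a mean of 8.88 ± 0.24 (SD, n = 4), and the 7d difference was 0.43 (SE 0.12, 95% interval 0.18 to 0.67, adjusted p = 0.0844 in limma). The call was thus lost while the difference stayed above 0. It was also lost without either of these mice alone, without CIE 7d mouse 9 or without CIE 7d mouse 45, with adjusted p-values up to 0.0188 in limma. No label gives a batch, so arrays were grouped by shared values into 6 sets, called hybridization sets here. That these sets are hybridization batches was not tested. Within each set the CIE 7d mouse was higher than the Ctrl 7d mouse, by 0.23 to 0.92.

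Other marker lists also differed between the 7d groups, over all 6 Ctrl mice. The striatum list ran from 6.87 to 7.28 in CIE and 7.26 to 9.17 in Ctrl mice, and Drd1 fell in CIE mice, with a difference of -1.43. Hippocampal neuron markers ran from 10.50 to 10.96 in CIE and 9.05 to 10.81 in Ctrl mice, and 0 of the 8 was called. This list joins markers that differed in opposite directions also among the mice other than 18 and 22. In Ctrl 7d mice 46, 54, 70 and 80, Spink8 was 6.86, 8.60, 10.69 and 8.90. Prox1 in the same mice was 10.01, 10.31, 8.38 and 9.85. CIE 7d mice ran from 9.72 to 11.29 for Spink8 and from 7.06 to 9.77 for Prox1. Mouse 70 had the highest Spink8 of these Ctrl mice and the highest Acss1 too. Astrocyte markers ran from 12.08 to 12.46 in CIE and 11.63 to 12.28 in Ctrl mice with 0 of 8 called, 1 of 6 microglia markers, Tmem119, rose, and 1 of 7 choroid plexus markers, Kl, rose. Of 8 thalamus markers 1, Plekhg1, rose, and markers of meninges and fibroblasts ran from 7.50 to 8.48 in CIE and 7.05 to 7.72 in Ctrl mice, with a median difference of 0.57 and 0 of 6 called. The median difference was 0.27 for 6 mural, 0.17 for 8 endothelial, -0.15 for 7 oligodendrocyte and 0.08 for 4 red blood cell markers, with 0 called. The part of tissue makeup in the 7d differences was not tested beyond leaving out mice 18 and 22.

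**Figure D3:**
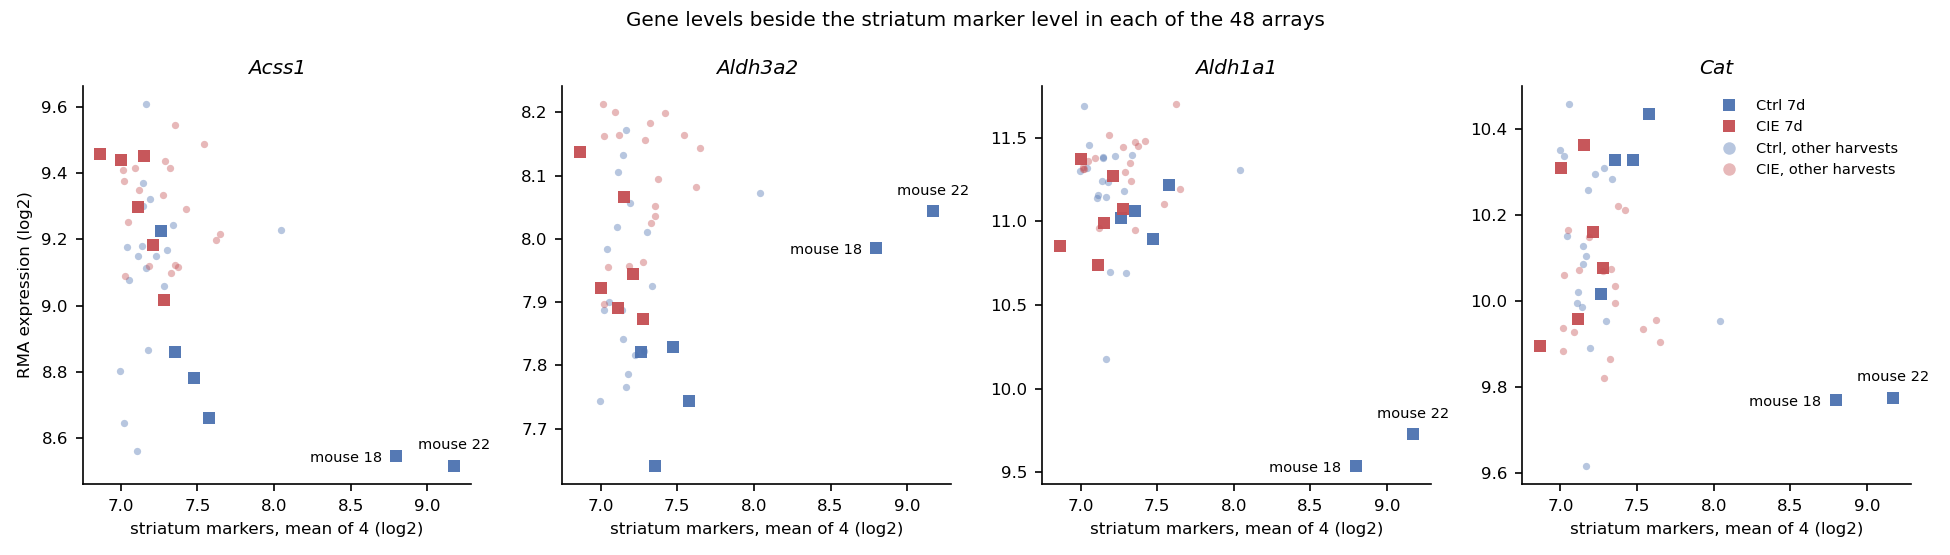
Log2 expression of Acss1, Aldh3a2, Aldh1a1 and Cat on the vertical axes against the mean log2 level of 4 striatum markers on the horizontal axes, 1 point per array (blue Ctrl, red CIE, squares 7d, circles other harvests). Ctrl 7d mice 18 and 22 lie far right at 8.80 and 9.17, at the low end for Acss1, Aldh1a1 and Cat and at the high end of Ctrl 7d mice for Aldh3a2.

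At 0h the levels of Acss1 in Ctrl mice 2, 12, 20, 38, 56 and 64 were 8.65, 9.08, 8.80, 9.61, 8.56 and 8.87, while CIE 0h mice lay between 9.09 and 9.55 with a median of 9.12. Mouse 38 lay above all CIE mice, and every other Ctrl mouse lay below all of them. The difference of 0.30 (SE 0.11) did not pass, with an adjusted p of 0.0992 in limma, and without mouse 38 it was 0.44 with an adjusted p of 0.00366. Mouse 38 also stood apart in hippocampal neuron markers. Of the Ctrl 0h mice it had the lowest Prox1 and Dsp, at 8.46 and 9.90. Its Spink8 and Fibcd1, at 10.92 and 9.83, were the highest of that group. Whether this bears on its Acss1 level was not tested. At 8h, Ctrl mice ran from 9.15 to 9.37 and CIE mice from 9.29 to 9.44, a difference of 0.13 (adjusted p = 0.600 in limma). At 72h, Ctrl mice ran from 9.06 to 9.24 and CIE mice from 9.12 to 9.49, a difference of 0.10 (adjusted p = 0.845 in limma).

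The mean of Acss1 was higher in CIE mice at each of the 4 harvests. Averaged over harvests the difference was 0.27 (SE 0.06, 95% interval 0.16 to 0.38), or 1.21-fold, with an adjusted p of 0.000421 in limma, and the F test gave an adjusted p of 0.00134. Without mice 18 and 22 the average was 0.24 (SE 0.06) with an adjusted p of 0.00185 in limma, while the F test was no longer called (adjusted p = 0.0138). Without the 3 Ctrl 0h arrays of high thalamus markers as well the average was 0.22, with an adjusted p of 0.00723, and the F test gave an adjusted p of 0.0428. The average was called in each of the 48 fits that left out 1 mouse, between 0.25 and 0.31.

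Group means of Acss1 ordered from 9.38 at CIE 8h through 9.31 at CIE 7d, 9.27 at CIE 72h, 9.25 at Ctrl 8h, 9.23 at CIE 0h, 9.16 at Ctrl 72h and 8.93 at Ctrl 0h to 8.76 at Ctrl 7d. The widest step between neighbours was 0.24, from Ctrl 72h to Ctrl 0h, and the other steps were smaller than the residual SD of 0.20. The lowest means were those of Ctrl mice at 0h and 7d, and the 4 CIE means were within 0.15 of each other.

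Acss1 had a further pair of probe sets, 1437583_x_at and 1437582_at, with means over all arrays of 4.62 and 3.78, below the array medians. At 7d the first differed by 0.21 (adjusted p = 0.109 in limma) and the second by -0.05, or by 0.11 and -0.13 without mice 18 and 22, and neither was called. The mean of the 3 probe sets gave 0.23 at 7d and 0.08 on average (adjusted p = 0.0261 and 0.0896 in limma), so both Acss1 calls rest on the brightest probe set, 1416617_at. The Acss1 effect at 7d minus that at 0h was 0.24, at 7d minus 8h 0.41 and at 7d minus 72h 0.44, with adjusted p-values of 0.722, 0.292 and 0.386 in limma, so the harvests were not shown to differ.

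Acss2, the nuclear and cytosolic acetyl-CoA synthetase, lay between 9.06 and 9.72 in all 48 mice. From 0h to 7d its difference was -0.01, -0.06, -0.05 and 0.10, or 0.03 at 7d without mice 18 and 22, and it was -0.01 on average (95% interval -0.08 to 0.06). Its other probe sets differed by -0.23 (1422478_a_at) and 0.20 (1446542_at) at 8h, in opposite directions, and neither was called. On average 1446542_at was higher by 0.12, with an adjusted p of 0.0271 in limma.

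Aldh3a2 encodes the membrane enzyme that oxidises long-chain aldehydes. At 8h it was 8.13, 7.98, 8.06, 7.82, 8.01 and 7.84 in Ctrl mice 4, 8, 32, 42, 66 and 79. In CIE mice 15, 21, 23, 25, 41 and 69 it was 8.16, 8.21, 8.20, 8.18, 8.16 and 8.16. Every CIE mouse lay above every Ctrl mouse, yet the difference of 0.21 (SE 0.06) missed the threshold, with an adjusted p of 0.0512 in limma. At this harvest 2.29% of all genes were called. That share counts calls, and the share of all genes without overlap is not given here. The CIE values spanned 0.06 and the Ctrl values 0.32.

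At the other harvests the groups of Aldh3a2 overlapped. At 0h, Ctrl mice had a lowest, median and highest value of 7.74, 7.84 and 8.02 and CIE mice of 7.90, 8.03 and 8.20, a difference of 0.18 (adjusted p = 0.0961 in limma). At 72h these were 7.82, 8.00 and 8.17 against 7.96, 8.09 and 8.16, a difference of 0.07. At 7d they were 7.64, 7.83 and 8.04 against 7.87, 7.93 and 8.14, a difference of 0.13.

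Averaged over harvests Aldh3a2 was higher in CIE mice by 0.15 (SE 0.03, 95% interval 0.08 to 0.21), or 1.11-fold, with an adjusted p of 0.000979 in limma. Mice 18 and 22, at 7.99 and 8.04, were the highest of the Ctrl 7d mice, the opposite side to Acss1. Without them the 7d difference was 0.21 (adjusted p = 0.119 in limma) and the average 0.17 (SE 0.03, adjusted p = 0.000165 in limma). The average was called under all 9 other settings tried and in all 48 fits without 1 mouse. Not all of these settings could test it. The looser cutoff for the adjusted p cannot lose a call. The mean of all probe sets left the difference unchanged, because only 1415776_at reads Aldh3a2. Its F test gave an adjusted p of 0.0112, just above the threshold.

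Aldh2, the mitochondrial enzyme that clears most acetaldehyde, ran at 0h from 9.75 to 10.31 in Ctrl and 10.09 to 10.26 in CIE mice by its brightest probe set, 1448143_at. Its difference from 0h to 7d was 0.10, 0.20, -0.01 and 0.17, with 0 called, and averaged 0.12 (SE 0.04, adjusted p = 0.0247 in limma). Without mice 18 and 22 the 7d difference was 0.12 and the average 0.10, with an adjusted p of 0.0620 for the average in limma.

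A pair of other Aldh2 probe sets was called at 0h. For 1457155_at, Ctrl mice had a lowest, median and highest value of 6.62, 6.77 and 6.86 and CIE mice of 6.92, 7.22 and 7.47, a difference of 0.45 (SE 0.10, adjusted p = 0.00412 in limma). For 1437410_at these were 7.32, 7.46 and 7.55 against 7.57, 7.70 and 7.80, a difference of 0.27 (SE 0.06, adjusted p = 0.00711 in limma). In both, every CIE mouse lay above every Ctrl mouse. At this harvest 865 of 45037 probe sets and 1.64% of all genes were called. The share of all probe sets without overlap is not given here.

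The 2 remaining Aldh2 probe sets, 1434987_at and 1434988_x_at, differed at 0h by 0.29 and 0.23 and were not called. At 8h, 1457155_at differed by -0.05 and 1437410_at by -0.02, so the probe sets that separated the groups at 0h did not do so at 8h, where 1448143_at had its widest difference. With hybridization sets as a block, which leaves out Ctrl 0h mouse 2, the adjusted p at 0h was 0.0218 for 1457155_at and 0.0518 for 1437410_at in limma. Without the Ctrl 0h arrays of high thalamus markers and mice 18 and 22 it was 0.0261 and 0.0106, at differences of 0.47 and 0.28. With only the 12 arrays of 0h, both calls were lost, at an adjusted p of 0.041 for 1457155_at and 0.061 for 1437410_at in limma. The call was kept in 8 of 12 fits without 1 mouse for 1457155_at and 5 of 12 for 1437410_at. Which transcripts these probe sets read was not analysed here.

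**Figure D4:**
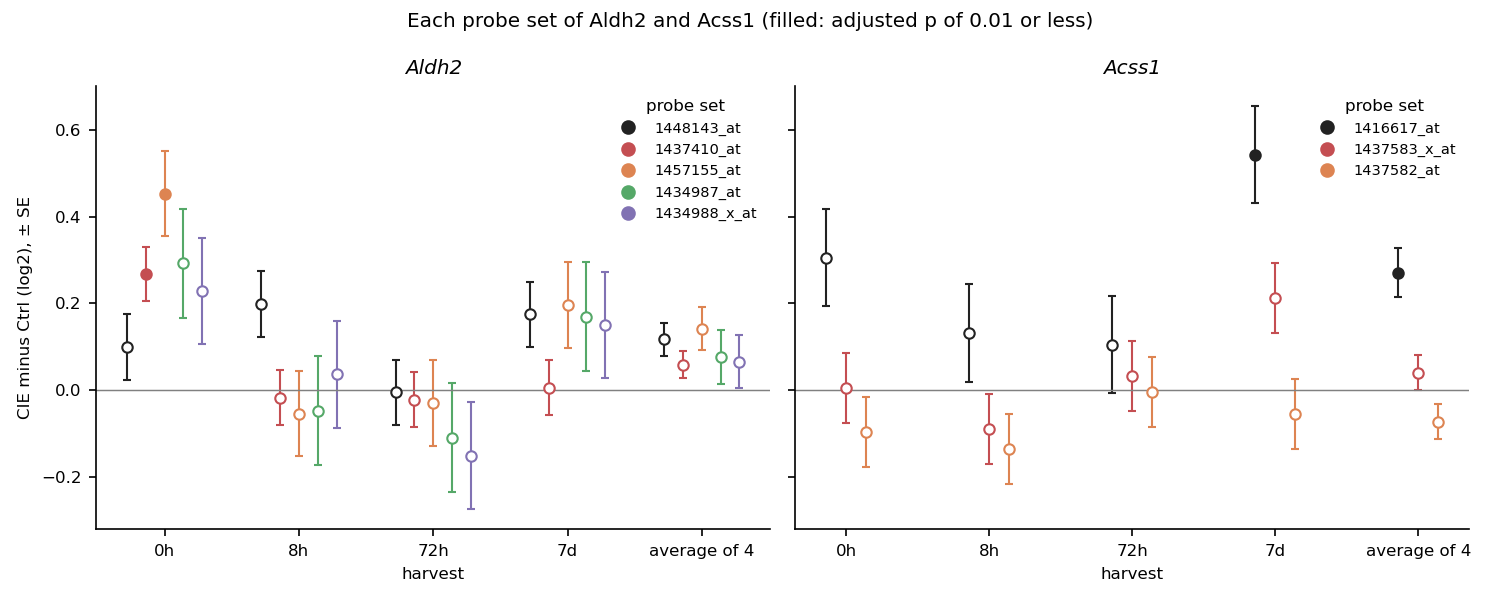
CIE minus Ctrl difference (log2) with its SE for each probe set of Aldh2 and Acss1 at the 4 harvests and on average; filled points have an adjusted p of 0.01 or less. For Aldh2, 1457155_at and 1437410_at are filled at 0h, at 0.45 and 0.27, and for Acss1 only 1416617_at is filled.

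Aldh1a1, the cytosolic retinaldehyde and acetaldehyde dehydrogenase, had the widest spread of the 10 genes. In Ctrl 7d mice its lowest, median and highest values were 9.54, 10.96 and 11.22, and in CIE 7d mice 10.74, 11.03 and 11.37. The 2 lowest values, 9.54 and 9.73, were those of mice 18 and 22, and the other 4 Ctrl mice lay between 10.90 and 11.22, among the CIE mice. The 7d difference of 0.47 (SE 0.21, adjusted p = 0.168 in limma) was 0.00 without these 2 arrays (95% interval -0.34 to 0.34). At 0h, 8h and 72h it was -0.02, 0.14 and 0.30, and on average 0.23 (adjusted p = 0.129 in limma), or 0.11 without mice 18 and 22.

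Aldh9a1, which oxidises aminoaldehydes, ran at 8h from 10.56 to 10.77 in Ctrl and from 10.34 to 10.74 in CIE mice, a difference of -0.19 (adjusted p = 0.195 in limma). At 0h, 72h and 7d it was -0.08, -0.09 and 0.04, or 0.08 at 7d without mice 18 and 22, and on average -0.08 (adjusted p = 0.180 in limma). Its other probe set, 1437398_a_at, differed by 0.17 at 8h, the opposite sign.

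Adh5, the class III alcohol dehydrogenase, is expressed in most tissues and clears formaldehyde bound to glutathione. At 8h its lowest, median and highest values were 11.55, 11.58 and 11.66 in Ctrl and 11.42, 11.48 and 11.58 in CIE mice. The groups overlapped, with CIE higher in 3 of 36 pairs. From 0h to 7d the Adh5 difference was -0.09, -0.10, -0.09 and -0.01, or -0.03 at 7d without mice 18 and 22, with 0 called.

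On average Adh5 was lower in CIE mice by a small amount, at -0.07 (SE 0.02, 95% interval -0.11 to -0.03, adjusted p = 0.00984 in limma). This call was at the edge of the threshold: it was kept in 10 of 48 fits without 1 mouse, with adjusted p-values up to 0.0171, and in 5 of 9 other settings. Those settings include the looser cutoff for the adjusted p, which cannot lose a call. Without mice 18 and 22 the adjusted p was 0.0117 in limma, at a difference of -0.08, and with each array centred on its median it was 0.0118. The second Adh5 probe set, 1443380_at, differed by -0.00 on average.

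Adh1, the hepatic type of alcohol dehydrogenase that pyrazole inhibits, had a mean over all arrays of 5.39 and Cyp2e1, the ethanol-oxidising cytochrome, of 4.97, both below the array medians. Adh1 ran at 7d from 5.19 to 5.44 in Ctrl and 5.34 to 5.75 in CIE mice, a difference of 0.20 (adjusted p = 0.209 in limma), or 0.16 without mice 18 and 22. At 0h, 8h and 72h it was -0.15, -0.13 and 0.01. For Cyp2e1 the differences from 0h to 7d were -0.17, -0.10, 0.02 and 0.02, with adjusted p-values from 0.319 to 0.978 in limma, and -0.06 at 7d without mice 18 and 22.

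Cat, catalase, which oxidises ethanol with hydrogen peroxide in peroxisomes, ran at 0h from 10.00 to 10.46 in Ctrl and from 9.93 to 10.15 in CIE mice. The difference of -0.21 was not called (adjusted p = 0.267 in limma), and without the 3 Ctrl 0h arrays of high thalamus markers it was -0.08. At 8h and 72h it was -0.12 and 0.01. At 7d mice 18 and 22 were both at 9.77, below the other Ctrl mice at 10.02 to 10.44, and the difference of 0.02 became -0.15 (adjusted p = 0.531 in limma) without them. The second Cat probe set, 1416430_at, differed by 0.21 at 7d, or 0.08 without mice 18 and 22, and by 0.02 at 0h.

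Whether the CIE effect changed between harvests was tested for each pair of harvests, and 0 of the 10 genes was called in any of the 6 tests, with or without mice 18 and 22. Those tests called 0.033% of all genes for 8h minus 0h, 0.0275% for 72h minus 0h, 0.066% for 7d minus 0h, 0.011% for 72h minus 8h, 0.0715% for 7d minus 8h and 0% for 7d minus 72h. Without adjustment, 0, 0, 1, 0, 2 and 1 of the 10 genes had a p under 0.05 in limma in the same order. Of all 45037 probe sets, 5323, 4932, 4108, 3859, 5116 and 3789 had such a p. The change with the lowest p was that of Acss1 from 72h to 7d, and Adh1 changed by 0.35 from 0h to 7d (adjusted p = 0.348 in limma).

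Harvests were also compared within each treatment, where the later harvests share the 0h mice. In Ctrl mice 0 of the 10 genes was called at 8h, 72h or 7d against 0h, beside 0.456%, 0.445% and 0.264% of all genes. In CIE mice 0 of the 10 was called either, beside 2.95%, 1.38% and 1.16% of all genes. Without adjustment, 1, 3 and 3 of the 10 in Ctrl and 1, 1 and 2 in CIE mice had a p under 0.05 in limma. Of all 45037 probe sets, 8746, 8497 and 5387 in Ctrl and 9710, 7190 and 4855 in CIE mice did.

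All 10 genes had a lower mean in Ctrl 7d than in Ctrl 0h mice, with a median of -0.14 where that of all genes was 0.01. The steps with the lowest p were -0.75 for Aldh1a1, -0.26 for Aldh2 and -0.24 for Acss2, with adjusted p-values of 0.0719, 0.104 and 0.113 in limma. Without mice 18 and 22 these steps were -0.28, -0.20 and -0.17, Cat was higher at 7d by 0.03, and the median of the 10 was -0.08. Both groups hold arrays that stood apart, mice 18 and 22 at 7d and mice 2, 12 and 20 at 0h.

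Genes around the pathway were read from 5 lists. Of 11 measured of 15 other alcohol dehydrogenases and reductases, 0 was called at any harvest or on average, Adh4 and Adh7 among them with average differences of 0.04 and 0.03. Of 16 other aldehyde dehydrogenases, 0 was called, and Aldh1l1, the folate enzyme of astrocytes, differed by 0.11 on average (adjusted p = 0.112 in limma). Of 12 measured of 15 microsomal and peroxisomal partners, 1 was called on average, Cyb5b, the outer mitochondrial cytochrome b5, higher by 0.12 (SE 0.02, adjusted p = 4.16e-05 in limma), beside 5.99% of all genes called higher.

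Of 15 measured of 17 genes for the fate of acetate and acetyl-CoA, 1 rose at 0h and 2 on average, beside 1.64% of all genes called at 0h and 5.99% called higher on average. At 0h Acacb, the mitochondrial acetyl-CoA carboxylase that makes malonyl-CoA, was 6.27 ± 0.22 in CIE mice against 5.69 ± 0.20 in Ctrl mice (SD, n = 6 each), higher in 35 of 36 pairs. The difference of 0.58 (SE 0.10), or 1.49-fold, had an adjusted p of 0.000301 in limma, and at 8h, 72h and 7d it was 0.13, -0.05 and 0.15, or 0.04 at 7d without mice 18 and 22. Slc16a1, a transporter of lactate, acetate and ketone bodies, rose on average by 0.17 (adjusted p = 0.00395 in limma). Acly, the cytosolic enzyme that makes acetyl-CoA from citrate, differed by -0.07 on average (adjusted p = 0.117 in limma).

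Of 10 measured of 11 genes for non-oxidative ethanol metabolism, 1 rose at 0h, at 8h and on average, beside 1.64%, 2.29% and 5.99% of all genes, and this was Sult1a1, a sulfotransferase of phenols that can also sulfate ethanol. At 0h Sult1a1 was 9.24 ± 0.28 in CIE mice against 8.38 ± 0.23 in Ctrl mice (SD, n = 6 each), with no overlap. The share of all genes without overlap is not given here. The difference was 0.86 (SE 0.14, adjusted p = 0.000181 in limma) at 0h and 0.82 (SE 0.14, adjusted p = 0.000141 in limma) at 8h, and -0.03 at 72h and 0.27 at 7d, or 0.14 at 7d without mice 18 and 22. With only the 12 arrays of 0h, the calls of Sult1a1 and Acacb at that harvest were lost (adjusted p = 0.0127 and 0.0343 in limma), and with the mean of all probe sets those of Slc16a1 and Cyb5b on average were lost (adjusted p = 0.0301 and 0.0245 in limma). At 72h and 7d, 0 gene of the 5 lists was called.

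**Figure D5:**
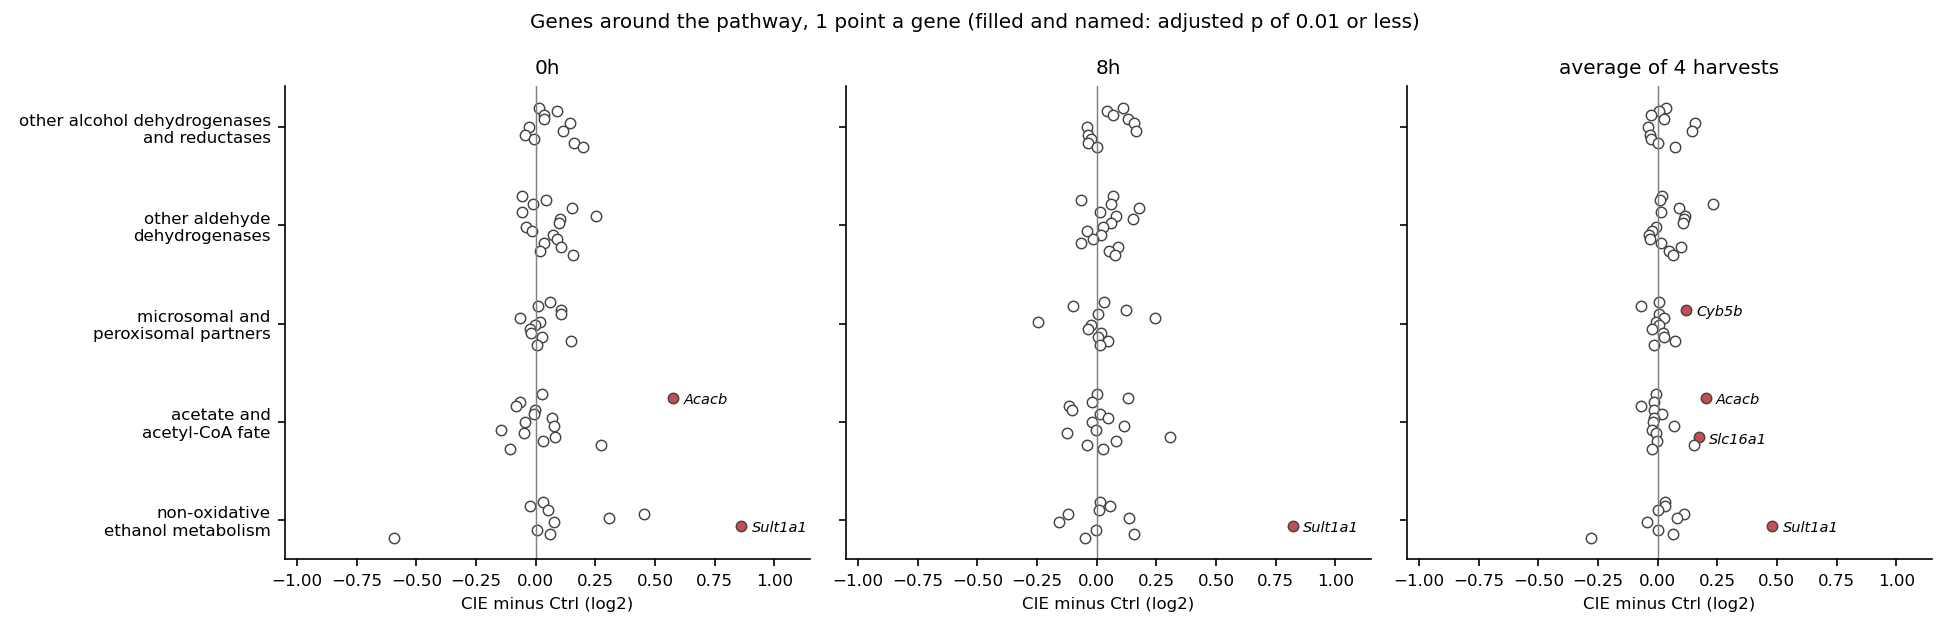
CIE minus Ctrl difference (log2) of each gene of the 5 pathway lists at 0h, at 8h and averaged over 4 harvests, 1 point per gene; filled and named points have an adjusted p of 0.01 or less. Sult1a1 is filled in each panel, Acacb at 0h and on average, and Slc16a1 and Cyb5b on average.

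Across the 48 arrays the 10 genes varied in part together. Pearson's r was 0.63 between Adh5 and Aldh9a1, 0.61 between Aldh2 and Acss1 and -0.63 between Aldh3a2 and Cat, and the points share treatment, harvest and tissue makeup. The genes most like Acss1 over the 48 arrays were Creb3l2 at r = 0.87, Mief1 at 0.83 and Ccdc127 at 0.82. Those most like Aldh3a2 were Pik3ca at 0.84, Wnk3 at 0.80 and Reep5 at 0.78, and those most like Adh5 were Emc3 at 0.77, Rps18 at 0.75 and Lrrc42 at 0.74. With group means removed, r was 0.79 for Acss1 and Creb3l2, 0.68 for Aldh3a2 and Pik3ca and 0.75 for Adh5 and Emc3.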

How the data were processed

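Hippocampal RNA of 48 mice was hybridised to Affymetrix Mouse Genome expression arrays. The deposited values are log2 expression made by the authors with RMA, with quantile normalization within hybridization batch and over all arrays, and ComBat for batch. The sources used here do not give tool versions. These values were used without further normalization, and the number of arrays limits their precision. Per the platform annotation, 34945 probe sets had 1 symbol, 932 several and 9160 none.

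A single limma model (limma 3.58.1, R 4.3.3) held all arrays and 8 group means for 45037 probe sets. Tests were two-sided, with Benjamini-Hochberg adjustment across probe sets and a call at 0.01. Harvest comparisons share the 0h groups. The scripts were tested on simulated data. The members and lists were chosen with earlier results of these data known, and all 10 genes are named, together with every list gene called and the 3 genes nearest each called member. Leaving out the arrays of high striatum or thalamus markers was chosen after seeing the data. Batches were not labelled, so 47 arrays were joined into 6 hybridization sets by at least 5 values equal within 1e-08; the array of Ctrl 0h mouse 2 joined none. Other settings were an adjusted p of 0.05, those sets as a block, arrays centred on their median and a repeated quantile normalization. Further settings were a mean of at least 5, the trend and robust options of limma and the mean of all probe sets. The last were only the 12 arrays of a harvest, and each mouse left out.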

Additional observations from a re-analysis of the deposited data

Results flagged for a closer look

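Of 80 tests of 1 gene in 1 group of 6 mice, 5 placed a single mouse far from the other 5 by Dixon's criterion, and chance alone marks about 1 in 20. Adh5 was lowest in Ctrl 72h mouse 24 at 11.50, where the next value was 11.66. Aldh1a1 was lowest in the same mouse at 10.18, where the next value was 11.16. Adh5 was highest in CIE 0h mouse 43 at 11.72, where the next value was 11.57, and Aldh9a1 was highest in the same mouse at 10.89, where the next value was 10.57. Aldh1a1 was lowest in CIE 8h mouse 41 at 10.96, where the next value was 11.29.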

How the results depend on the processing

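The count of the 10 genes called by the F test was 2 at an adjusted p of 0.05, with median centring or with probe sets of a mean of at least 5, and 0 with the mean of all probe sets. At 7d it was 0 with the mean of all probe sets, with only the 12 arrays of that harvest, and without the arrays of high striatum markers, alone or together with those of high thalamus markers. The average gave 1 with the mean of all probe sets. With 1 mouse left out, the count ran from 0 to 1 at 0h, 0 to 1 at 7d, 1 to 2 for the F test and 0 to 1 for later against 0h Ctrl mice. Both cases of a call at 0h or between Ctrl harvests came without Ctrl 0h mouse 38.

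Of 46 gene differences not called, 8 changed sign under some setting, not counting the fits without 1 mouse, which are given below. Under a setting other than 0.05, 0 of the 46 was called, besides Acss1 at 0h without mouse 38. With the block, Aldh1a1 at 0h was 0.051 and Acss2 at 0h 0.013. With the mean of all probe sets, Adh5 at 0h was 0.012, Cat on average 0.0105, Acss1 at 8h -0.0315 and Acss2 on average 0.0019. Without mice 18 and 22, Cyp2e1 at 7d was -0.058 and Cat at 7d -0.15, with or without the thalamus arrays, and without the latter too Aldh1a1 at 0h was 0.14 and Acss2 at 0h 0.0053. With 1 mouse left out, differences ran from -0.057 to 0.057 for Aldh1a1 at 0h, -0.038 to 0.024 for Acss2 at 0h, -0.0175 to 0.0028 for Acss2 on average, -0.030 to 0.075 for Adh1 at 72h, -0.039 to 0.025 for Aldh2 at 72h, -0.040 to 0.083 for Cyp2e1 at 72h, -0.068 to 0.070 for Cat at 72h, -0.026 to 0.055 for Cyp2e1 at 7d, -0.0496 to 0.084 for Cat at 7d and -0.0041 to 0.076 for Aldh9a1 at 7d.

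Over all probe sets, the calls at 0h, 8h, 72h, 7d, on average and by the F test numbered 865, 967, 3, 604, 4652 and 3453. At 0.05 they were 2629, 2303, 50, 2606, 8105 and 6734. With the block, 182 were called at 0h, 250 at 7d and 2045 by the F test, and with the mean of all probe sets the F test called 1211. With only 12 arrays, 42, 499, 0 and 1 were called at the 4 harvests. Without mice 18 and 22, 11 were called at 7d, and without the thalamus arrays too 249 at 0h, 16 at 72h and 17 at 7d. With 1 mouse left out, the ranges were 261 to 1508 at 0h, 586 to 1392 at 8h, 0 to 10 at 72h and 89 to 1482 at 7d. The cause of these changes was not tested. Mouse numbers are not shared between groups and pair no samples, and the block stands for the hybridization sets. The number of arrays limits what differences can be detected.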
